A study of Mus musculus with 8 samples.

Results

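The liver X receptors and the genes of cholesterol efflux around them were followed as 9 transcripts: Nr1h2, Nr1h3, Abca1, Abcg1, Apoe, Mylip, Lpcat3, Ch25h and Soat1. They were picked by name, each matched 1 row of the 55801 genes in the table, and all 9 were among the 12189 genes tested. RNA was sequenced from peritoneal macrophages of male C57BL/6 mice aged 6 to 8 weeks, which were collected 72 h after an injection of thioglycollate, an irritant that draws monocytes into the abdominal cavity. There were 4 groups of 2 samples. NC cells received the vehicle, which the methods do not name for the sequenced cells. LPS cells received the vehicle and then 100 ng/ml LPS (bacterial lipopolysaccharide, a ligand of the receptor TLR4) for 4 h. C498 cells received 15 µM of the small molecule C498, and C498+LPS cells received C498 for 0.5 h before the same LPS challenge. Neither the labels nor the methods say whether the 2 samples of a group came from separate mice or how many mice were pooled, so p-values measure only the spread between these samples, which may be technical.

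The liver X receptors, LXRα (Nr1h3) and LXRβ (Nr1h2), are nuclear receptors that bind oxysterols and desmosterol, pair with a retinoid X receptor and switch on genes that carry cholesterol out of the cell. In macrophages these targets include Abca1 and Abcg1, transporters that load cholesterol onto apolipoprotein A-I and onto HDL, Apoe, an apolipoprotein that accepts cholesterol, Mylip, a ubiquitin ligase that marks the LDL receptor for degradation, and Lpcat3, which puts polyunsaturated fatty acids into phospholipids. Ch25h makes the oxysterol 25-hydroxycholesterol, and Soat1 esterifies cholesterol for storage in lipid droplets.

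A direct repeat of the core site of nuclear receptors with 4 bases between its copies (DR4) is the element LXR and its partner recognise. In the 250 bases before the RefSeq start sites, 8 of the 9 genes (all but Abcg1) were matched to the RefSeq table for GRCm38.p6, with 11 promoters in all. The strict DR4 spelling, AGGTCA followed by 4 free bases and AGGTCA again, read on both strands, was in none of them and in 0.0152% of 32851 promoters. The relaxed spelling, GGTNA followed by 5 free bases and GGTNA again, which also takes in every strict match, was in the Abca1 promoter alone among the 8 genes searched and in 0.621% of all promoters. For Ch25h, the gene that rose most under LPS, the cAMP response element TGACGTCA was found, a match shared by 1.55% of promoters. The spellings were chosen after the sequences had been looked at. An NFκB spelling, GGGA and TTTCC with 1 free base between them (0.356% of promoters), and an interferon response spelling, GAAA and GAAA with 2 free bases between (2.98%), were in no promoter of these 8 genes. These matches are descriptions of letters and not sites shown to be bound. The pair of promoters is shown from base -170 to base -21 before the start, on the gene's own strand, with the relaxed DR4 or the cAMP response element in capitals.
Abca1, chr4:53159916-53160065, minus strand: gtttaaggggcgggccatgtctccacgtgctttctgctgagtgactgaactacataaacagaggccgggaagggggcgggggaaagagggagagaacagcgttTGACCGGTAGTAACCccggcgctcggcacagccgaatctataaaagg
Ch25h, chr19:34475169-34475318, minus strand: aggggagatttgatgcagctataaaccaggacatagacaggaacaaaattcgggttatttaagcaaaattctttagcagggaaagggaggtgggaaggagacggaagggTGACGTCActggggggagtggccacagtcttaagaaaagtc

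Values are TPM levels, an abundance per transcript that takes account of gene length and has the same total in every sample, so levels of different genes can be compared, but the depth behind a value is unknown. Changes are log2 changes of TPM + 1 from limma, with p adjusted by the Benjamini-Hochberg method over all tested genes. Calls required both a 2-fold difference and an adjusted p no higher than 0.05. With 2 samples against 2, an exact permutation test of a single value cannot give a two-sided p below 0.333.

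Apoe stood far above the others, with a mean of 3503 TPM over the 8 samples, above 99.8% of the tested genes. Soat1 (187.5 TPM) and Nr1h2 (99.1 TPM) followed, above 93.8% and 88.8% of the tested genes. Nr1h3, Abca1, Lpcat3, Abcg1 and Ch25h lay between 37.7 and 18.0 TPM. Mylip was lowest at 5.84 TPM, above 29.6% of the tested genes.

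The cells carried the macrophage identity of their label. All 8 macrophage markers looked up were at a mean of at least 1 TPM, and their summed level ran from 12425 TPM to 20596 TPM. The markers of other cells also moved with the groups. The summed level of 6 fibroblast markers lay between 150.3 and 200.5 TPM in the 4 samples without C498 and between 618.1 and 910.8 TPM in the 4 with it, and 6 mesothelial markers lay between 4.71 and 5.70 TPM and between 15.6 and 26.8 TPM. The macrophage sum was 17933 to 20596 TPM without C498 and 12425 to 16087 TPM with it, most of it Lyz2, the macrophage lysozyme. The other 7 markers summed to between 4120 and 5142 TPM without C498 and between 4507 and 4973 TPM with it, a range that includes Cd14, which ran from 235.5 to 252.0 TPM in NC and from 663.3 to 686.4 TPM in C498, and from 1250 to 1352 TPM in LPS and from 1794 to 1797 TPM in C498+LPS. Without Lyz2 and Cd14 the other 6 summed to between 3868 and 4371 TPM in NC, 3844 and 3849 TPM in C498, 3564 and 3790 TPM in LPS, and 2800 and 3177 TPM in C498+LPS, lower with C498 in both pairs of groups. Adgre1, the antigen F4/80, ran from 574.1 to 723.0 TPM without C498 and from 323.0 to 449.5 TPM with it. Csf1r, Itgam and Fcgr1 also had lower means with C498 in both pairs, but the fall was not uniform. The mean of Mrc1 was higher with C498, at 27.4 against 23.3 TPM without LPS, where samples overlapped, and 21.0 against 17.1 TPM after it. Cd68 averaged 2839 TPM under C498 alone against 2791 TPM under vehicle. After LPS its mean was lower with C498, at 2314 against 2489 TPM. Neutrophil markers (9, with Ngp at 0 in every sample) summed to between 187.5 and 227.5 TPM without C498 and between 115.4 and 140.3 TPM with it. Nearly all of that sum was S100a8 and Mmp8, and S100a9, Cxcr2 and Ltf stayed under 1 TPM in every sample and Ly6g was at 0 in all but C498 replicate 2 (2.62 TPM). B cell markers (6) summed to between 18.0 and 25.1 TPM without C498 and between 41.7 and 120.2 TPM with it, and eosinophil markers (5, with Epx at 0 in every sample) to between 1.58 and 2.21 TPM and between 0.67 and 0.92 TPM. Mast cell markers (5) summed to between 8.57 and 22.5 TPM over the samples, endothelial markers (5) to between 19.7 and 32.6 TPM and T cell markers (7) to at most 6.17 TPM. The part of these shifts in the C498 comparisons below was not tested, and in bulk RNA fewer cells of a type and less RNA per cell cannot be told apart.

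**Figure D1:**
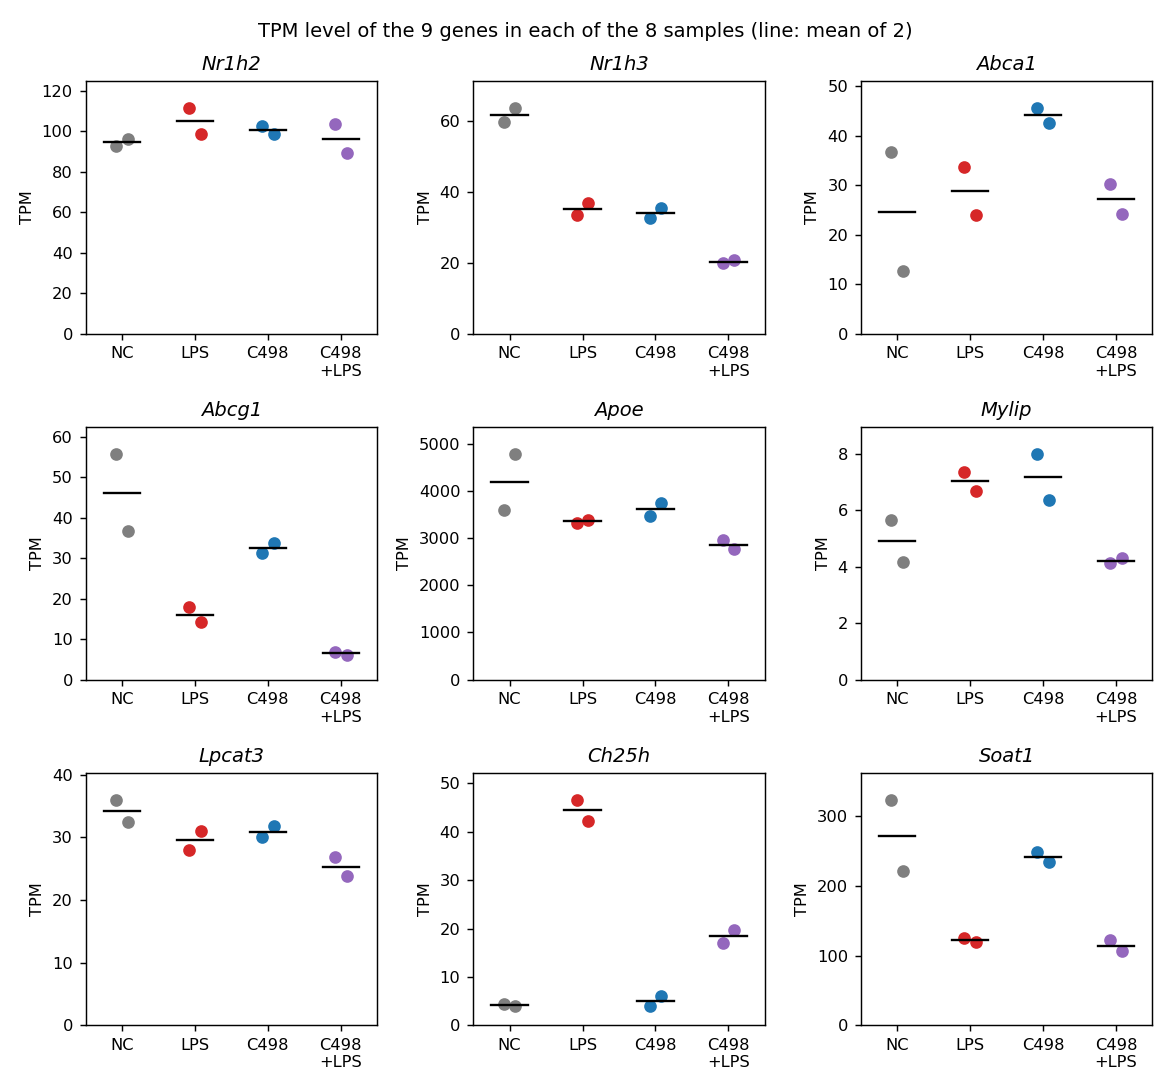
TPM levels of the 9 genes, 1 panel per gene with its own linear axis from 0, in the 4 groups on the horizontal axis. Each point is 1 sample and each line the mean of 2 samples. Nr1h3 and Abcg1 are lowest in C498+LPS, Ch25h is highest in LPS, and the NC samples of Abca1 span the levels of both LPS groups.

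LPS raised Ch25h and lowered the efflux transporter Abcg1 and the esterifying enzyme Soat1, while the receptor Nr1h3 fell by less than 2-fold. In LPS vs NC, 3 of the 9 genes were called, 1 higher and 2 lower, and 12.2% of all tested genes were called, 5.55% higher and 6.68% lower. With no fold threshold 4 of the 9 had an adjusted p of at most 0.05, against 29.6% of all tested genes. The median log2 change was -0.21 over the 9 genes and -0.17 over all tested genes. The groups did not overlap for 8 of the 9 genes, a pattern that 61.4% of all tested genes showed. Centring each sample on its median gene moved the median of all tested genes from -0.17 to -0.00054 in LPS vs NC, from 0.014 to -0.11 in C498 vs NC and from -0.18 to 0.038 in C498+LPS vs C498, so small changes are read relative to those shifts.

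Of the receptors, Nr1h3 was the one that moved. It was at 59.6 and 63.5 TPM in NC, 33.4 and 36.7 TPM in LPS, 32.5 and 35.3 TPM in C498, and 19.8 and 20.8 TPM in C498+LPS. The C498 and LPS samples shared 1 range, NC lay above both and C498+LPS below both. Limma gave -0.80 in LPS vs NC (standard error 0.110, adjusted p = 0.00224) and -0.84 in C498 vs NC (adjusted p = 0.00423), both under 2-fold. With both treatments against NC the means differed 3.03-fold, and this change was called (log2 change -1.55, standard error 0.110, adjusted p = 8.99e-05). The log2 change between C498+LPS and LPS was -0.76 (adjusted p = 0.00490) and between C498+LPS and C498 it was -0.71 (adjusted p = 0.00722). The last was -0.50 with centring (adjusted p = 0.0927) and did not pass without C498 replicate 2 (adjusted p = 0.0702), C498 vs NC did not pass without C498 replicate 1 (0.0509), and C498+LPS vs LPS did not pass without LPS replicate 2 (0.0514). The interaction, which is the difference between the LPS responses with and without C498, was 0.083 with a 95% interval from -0.28 to 0.45 (limma, adjusted p = 0.877). These comparisons share samples, among them those of NC, and are given side by side.

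Nr1h2, the other receptor, was at 92.9 and 96.2 TPM in NC, 111.5 and 98.6 TPM in LPS, 102.5 and 98.5 TPM in C498, and 103.6 and 89.1 TPM in C498+LPS. The means ran from 94.6 to 105.1 TPM, in the order NC, C498+LPS, C498 and LPS, and each group overlapped with the next. Its log2 changes in the 5 comparisons of groups lay between -0.12 and 0.15, and none passed an adjusted p of 0.05. With the length trend of each sample removed, LPS vs NC was 0.39 (adjusted p = 0.0276), under 2-fold. The 95% interval in LPS vs NC without that step was -0.11 to 0.41, which does not reach a 2-fold change. The TPM level of Nr1h2 exceeded that of Nr1h3 in every sample.

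Abcg1 was at 55.8 and 36.7 TPM in NC and at 18.0 and 14.2 TPM in LPS, a 2.88-fold lower mean (log2 change -1.45, standard error 0.214, adjusted p = 0.00288). In C498 cells it was at 31.4 and 33.7 TPM, and after LPS at 6.93 and 6.08 TPM, a 5.0-fold lower mean (log2 change -2.16, standard error 0.214, adjusted p = 0.00121). No samples of these 4 groups overlapped, in the order NC, C498, LPS and C498+LPS. C498 alone gave -0.47 (adjusted p = 0.184), -0.17 without NC replicate 1 (adjusted p = 0.505), and -0.59 with centring (adjusted p = 0.0297). The interaction was -0.71 (95% interval -1.42 to -0.0016) and did not pass the adjustment (limma, adjusted p = 0.450). Against NC, the mean of C498+LPS was 7.11-fold lower (log2 change -2.63, adjusted p = 0.000168), the largest fall among the 9 genes.

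Abca1, the partner of Abcg1 in efflux, gave no call in any comparison. It was at 36.7 and 12.6 TPM in NC, 33.7 and 24.0 TPM in LPS, 45.6 and 42.7 TPM in C498, and 30.3 and 24.1 TPM in C498+LPS. The NC samples covered the range of both LPS groups, and both C498 samples were above all others. The log2 change was 0.38 in LPS vs NC (standard error 0.426, adjusted p = 0.554) and 0.99 in C498 vs NC (adjusted p = 0.159). These values rested on which NC sample was used. Without NC replicate 1, Abca1 was called in LPS vs NC at 1.11 (adjusted p = 0.0205), in C498 vs NC at 1.73 (adjusted p = 0.00914) and in C498+LPS vs NC at 1.04 (adjusted p = 0.0181). Without NC replicate 2 the changes were -0.36, 0.26 and -0.43, none of them called. C498+LPS vs C498, which uses neither NC sample in its means, gave -0.69 (adjusted p = 0.314, and 0.0462 in a fit of these 2 groups alone), and the 2 groups did not overlap.

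Abca1 is the longest of the 9 genes at 10262 bases, and the NC samples differed by gene length. Over the 1151 tested genes longer than 6000 bases, the median of NC replicate 2 minus NC replicate 1 was -0.65 on the log2 scale, against 0.015 over the 4393 genes of up to 2000 bases. The same median over the long genes was -0.25 in LPS, -0.058 in C498 and -0.17 in C498+LPS. For Abca1 the difference in NC was -1.46, larger in size than that of 98.0% of tested genes. The median change of the long genes was 0.36 in C498 vs NC and 0.0053 in LPS vs NC. With the length trend of each sample removed, an alternative added after these values were seen, Abca1 gave 0.36 in LPS vs NC and 0.51 in C498 vs NC (adjusted p = 0.250 and 0.132), and Abcg1 (5832 bases) gave -1.40 and -0.77 (adjusted p = 8.46e-05 and 0.00296).

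**Figure D2:**
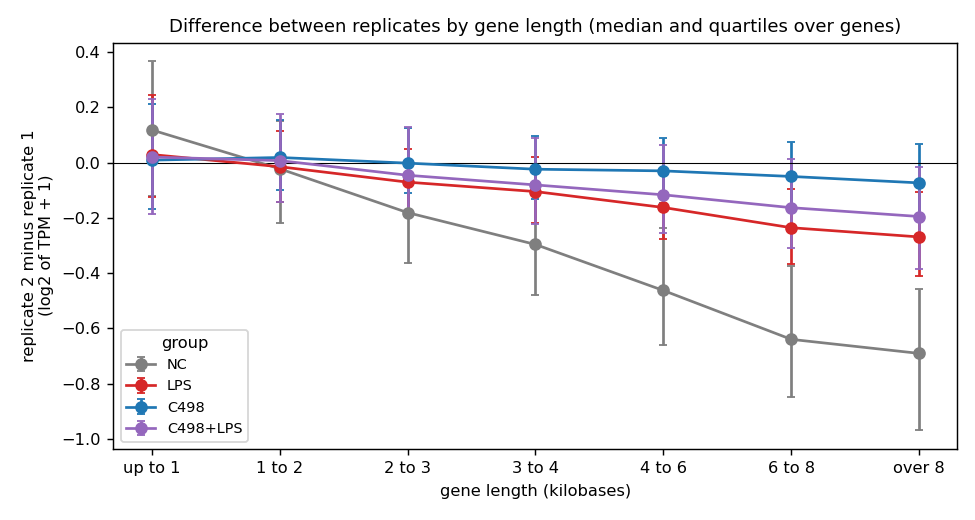
Replicate 2 minus replicate 1 in log2 of TPM + 1 (vertical axis) by gene length in kilobases (horizontal axis), as the median over the tested genes of each length class with quartiles as bars, 1 line per group. The NC line falls with length to -0.69 for genes over 8 kilobases, where the C498 line is closest to 0, at -0.073.

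Apoe was at 3596 and 4781 TPM in NC, 3325 and 3376 TPM in LPS, 3472 and 3751 TPM in C498, and 2964 and 2760 TPM in C498+LPS. Both C498+LPS samples were below all others. Its log2 change was -0.54 in C498+LPS vs NC (standard error 0.135, adjusted p = 0.0175), under 2-fold, and no other comparison passed an adjusted p of 0.05, with -0.31 in LPS vs NC (adjusted p = 0.131). That value was -0.51 without NC replicate 1 (adjusted p = 0.0149) and -0.10 without NC replicate 2 (adjusted p = 0.458). With each sample centred on its median gene the change in C498+LPS vs NC was -0.44 (adjusted p = 0.176), and with the length trend removed it was -0.24 (adjusted p = 0.173).

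Lpcat3, which remodels phospholipids, was at 36.0 and 32.4 TPM in NC, 28.0 and 31.0 TPM in LPS, 30.0 and 31.8 TPM in C498, and 26.9 and 23.8 TPM in C498+LPS. Its lowest samples were again those with both treatments, and the other groups lay close together. The log2 change of C498+LPS vs NC was -0.42 (standard error 0.123, adjusted p = 0.0300), and the other comparisons did not pass. It was -0.33 with centring (adjusted p = 0.0814) and -0.22 with the length trend removed (adjusted p = 0.110), and its adjusted p was as high as 0.141 over the alternatives. Exons of Lpcat3 overlap those of Emg1 on the opposite strand, which had a mean of 62.4 TPM, and whether counting used the strand is not given in the sources used here, so reads of the pair may not be told apart.

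Mylip, the ligase that acts on the LDL receptor, had its highest levels with 1 of the treatments. It was at 5.65 and 4.18 TPM in NC, 7.35 and 6.70 TPM in LPS, 8.00 and 6.36 TPM in C498, and 4.13 and 4.31 TPM in C498+LPS. Both samples of LPS and of C498 were above all samples of the other groups. The log2 change was 0.45 in LPS vs NC (adjusted p = 0.132) and -0.64 in C498+LPS vs C498 (adjusted p = 0.0694), and -0.62 in C498+LPS vs LPS (adjusted p = 0.0769). Under centring, quantile normalization and removal of the length trend, LPS vs NC was 0.62, 0.66 and 0.65 (adjusted p = 0.0215, 0.0156 and 0.0141) and C498+LPS vs LPS was -0.70, -0.77 and -0.66 (adjusted p = 0.0195, 0.0136 and 0.0177), all under 2-fold. Without either NC sample, C498+LPS vs LPS and C498+LPS vs C498 also passed the adjusted p (from 0.0375 to 0.0414). The interaction was -1.09 (standard error 0.281, unadjusted p = 0.00564, adjusted p = 0.213). Of all tested genes 0.468% were called for the interaction, 0.492% passed the adjusted p alone, and none of the 9 genes was among them, while 3 of the 9 had an unadjusted p under 0.05 against 11.1% of all tested genes.

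Ch25h had the largest response to LPS. It was at 4.33 and 3.91 TPM in NC and at 46.6 and 42.3 TPM in LPS, a 10.8-fold higher mean (log2 change 3.15, standard error 0.193, adjusted p = 5.90e-05). In C498 cells it was at 4.06 and 6.09 TPM, and after LPS at 17.1 and 19.8 TPM, a 3.64-fold higher mean (log2 change 1.70, adjusted p = 0.00207). NC and C498 overlapped, and C498+LPS lay between them and LPS. C498+LPS was 2.41-fold lower than LPS (log2 change -1.23, standard error 0.193, adjusted p = 0.00675). The interaction was -1.45 with a 95% interval from -2.09 to -0.81 and an unadjusted p of 0.000980, which gave an adjusted p of 0.0940. It ranged from 0.0349 with the length trend of each sample removed to 0.439 over the alternatives.

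Soat1 was at 323.6 and 220.9 TPM in NC, 124.7 and 119.4 TPM in LPS, 248.4 and 234.0 TPM in C498, and 122.1 and 106.7 TPM in C498+LPS. It fell with LPS whether C498 was present or not, and the C498 samples lay within the range of NC. The mean was 2.23-fold lower in LPS vs NC (log2 change -1.12, standard error 0.172, adjusted p = 0.00334) and 2.11-fold lower in C498+LPS vs C498 (log2 change -1.07, adjusted p = 0.00848). The interaction was 0.053 with a 95% interval from -0.52 to 0.63. Since the falls were close to 2-fold, centring each sample on its median gene took them to -0.96 and -0.86, under the fold threshold, with adjusted p of 0.00115 and 0.00408, and without NC replicate 1 the first was -0.85 (adjusted p = 0.0045).

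C498 on its own called none of the 9 genes, and with LPS it lowered Abcg1 and Ch25h. In C498 vs NC 7% of all tested genes were called. Without a fold threshold, 1 of the 9 genes (Nr1h3, lower) had an adjusted p of at most 0.05, against 15.5% of all tested genes, and 2 of the 9 (Nr1h3 and Mylip) had an unadjusted p under 0.05 against 32%. In C498+LPS vs LPS 2 of the 9 were called, both lower, where 7.57% of all tested genes were called and 2.18% were called lower. All 9 had a negative log2 change there, with a median of -0.23 against 0.0065 over all tested genes, and 3 of the 9 had an adjusted p of at most 0.05 against 16.8% of all tested genes. Abcg1 gave -1.18 (standard error 0.214, adjusted p = 0.0116) with a 2.47-fold lower mean. Without LPS replicate 1 and without LPS replicate 2 neither gene was called (adjusted p of 0.0948 and 0.0514 for Abcg1, and 0.0705 and 0.0547 for Ch25h), and without C498+LPS replicate 2 the call of Abcg1 was lost (adjusted p = 0.0937). In C498+LPS vs C498 3 of the 9 were called, Ch25h higher and Abcg1 and Soat1 lower, where 5.64% of all tested genes were called, 2.52% higher and 3.13% lower, and 4 of the 9 had an adjusted p of at most 0.05 against 16.2%. The call of Soat1 there was lost without either C498 sample (adjusted p = 0.0790 and 0.0674) and without C498+LPS replicate 2 (0.0731). In C498+LPS vs NC 4 of the 9 were called, 1 higher and 3 lower, where 18.2% of all tested genes were called, 9.15% higher and 9.06% lower, and 6 of the 9 had an adjusted p of at most 0.05 against 41.7%.

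**Figure D3:**
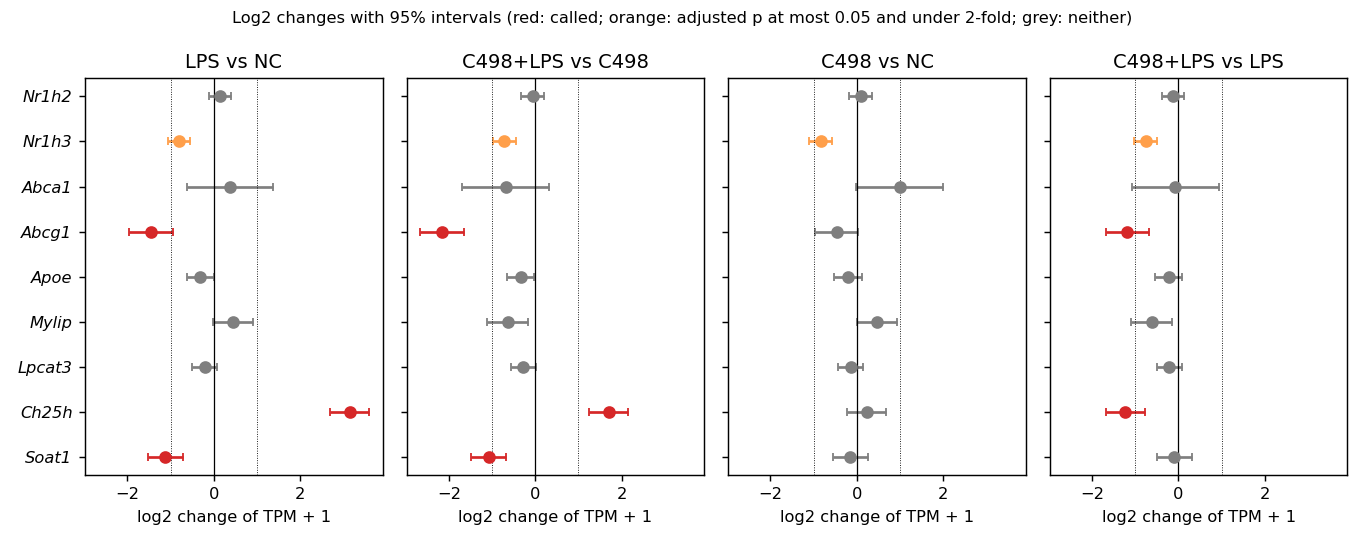
Log2 changes of TPM + 1 (horizontal axis) of the 9 genes (vertical axis) in 4 comparisons, with 95% intervals from limma as bars and 2-fold changes as dotted lines. Red points were called, orange points had an adjusted p of at most 0.05 under 2-fold, and grey points neither. Abcg1 is red and negative in 3 of the 4 panels, and Ch25h is red in the same 3, positive in both LPS responses and negative in C498+LPS vs LPS.

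Rxra and Pparg were lower after LPS, with and without C498. Of 16 partners and coregulators on the list, 15 were tested, and 2 were called lower in LPS vs NC and none higher, where 6.68% of all tested genes were called lower. The median was -0.25, against -0.17 over all tested genes. Rxra, the main retinoid X receptor that pairs with LXR, was at 46.2 and 33.4 TPM in NC, 17.1 and 15.4 TPM in LPS, 27.5 and 27.3 TPM in C498, and 13.3 and 11.3 TPM in C498+LPS, with no overlap between groups. Its log2 change was -1.22 in LPS vs NC (adjusted p = 0.00256) and -1.10 in C498+LPS vs C498 (adjusted p = 0.00819). Pparg, another lipid-sensing receptor of macrophages, changed by -1.94 in LPS vs NC (adjusted p = 0.000165) and by -1.27 in C498+LPS vs C498 (adjusted p = 0.00239). No gene of this list was called in C498 vs NC or in C498+LPS vs LPS, where 7% and 7.57% of all tested genes were called. Pparg was higher in C498+LPS than in LPS by 0.81 (adjusted p = 0.0122), under 2-fold.

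Of 14 other known targets of LXR on the list 13 were tested. In C498 vs NC 3 were called higher and 1 lower, with a median of -0.0017 against 0.014 over all tested genes, of which 7% were called. Srebf1, the LXR target that drives fatty acid synthesis, was at 24.8 to 35.5 TPM in the 8 samples with no change past an adjusted p of 0.05. Fasn, the fatty acid synthase, rose in C498 vs NC (log2 change 1.20, adjusted p = 0.00222) and in C498+LPS vs LPS, where it went from 9.18 and 10.8 TPM to 43.5 and 50.1 TPM (log2 change 2.12, adjusted p = 0.000430). Scd1, a fatty acid desaturase, rose from 2.16 and 1.45 TPM in NC to 8.59 and 8.05 TPM in C498 (log2 change 1.74, adjusted p = 0.00366), and was higher in C498+LPS than in LPS by 1.32 (adjusted p = 0.00876). Acaca, the acetyl-CoA carboxylase that feeds Fasn, was not called, with 0.51 in C498 vs NC (adjusted p = 0.312) and 0.054 in C498+LPS vs LPS (adjusted p = 0.941). Scd2, another desaturase, was higher in C498 vs NC by less than 2-fold (0.82, adjusted p = 0.0198). It fell under LPS (-1.28, adjusted p = 0.00170) and was higher in C498+LPS than in LPS (1.5, adjusted p = 0.00190).

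In C498+LPS vs LPS 4 of the 13 targets were called higher, the fourth being Arl4c, a small GTPase (1.11, adjusted p = 0.00367), and 1 lower, where 5.39% of all tested genes were called higher and 2.18% lower. The target called lower was Apoc2, an apolipoprotein that activates lipoprotein lipase. It changed by -1.13 (adjusted p = 0.0171) and by -1.02 in C498 vs NC (adjusted p = 0.0280). Cd5l, another target on the list, was lower in C498+LPS vs LPS by less than 2-fold (-0.76, adjusted p = 0.0251). Tgm2, a transglutaminase, rose in LPS vs NC (1.81, adjusted p = 0.000102) and in C498 vs NC (1.14, adjusted p = 0.00173). The median over the list was -0.18 in C498+LPS vs LPS, against 0.0065 over all tested genes. Fasn and Scd1, like the fibroblast markers given above, were higher in each C498 sample than in any other, and the part of the markers was not tested.

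Of 9 enzymes that make or clear LXR ligands 6 were tested. In LPS vs NC 2 were called, both lower, where 12.2% of all tested genes were called, and in C498+LPS vs C498 2 were called, both lower, where 5.64% were. In C498 vs NC 1 was called, where 7% of all tested genes were. Cyp27a1, which makes 27-hydroxycholesterol, was lower in LPS vs NC (-1.11, adjusted p = 0.0127), as was Dhcr7, the last reductase of cholesterol synthesis, from 32.2 and 18.9 TPM in NC to 4.34 and 4.54 TPM in LPS (-2.24, adjusted p = 0.000745). Dhcr7 and Hsd3b7, an enzyme that clears 25-hydroxycholesterol products, were lower in C498+LPS vs C498 (-1.25 and -1.10, adjusted p = 0.0156 and 0.00473). Hsd3b7 gave -0.95 in LPS vs NC (adjusted p = 0.00404), under 2-fold. Cyp7b1, which hydroxylates 25-hydroxycholesterol further, was at 0.500 and 0.720 TPM in NC and 2.40 and 2.48 TPM in C498 (1.10, adjusted p = 0.0287). None was called in C498+LPS vs LPS, where 7.57% of all tested genes were, and Cyp7b1 gave 0.98 there (adjusted p = 0.0383).

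**Figure D4:**
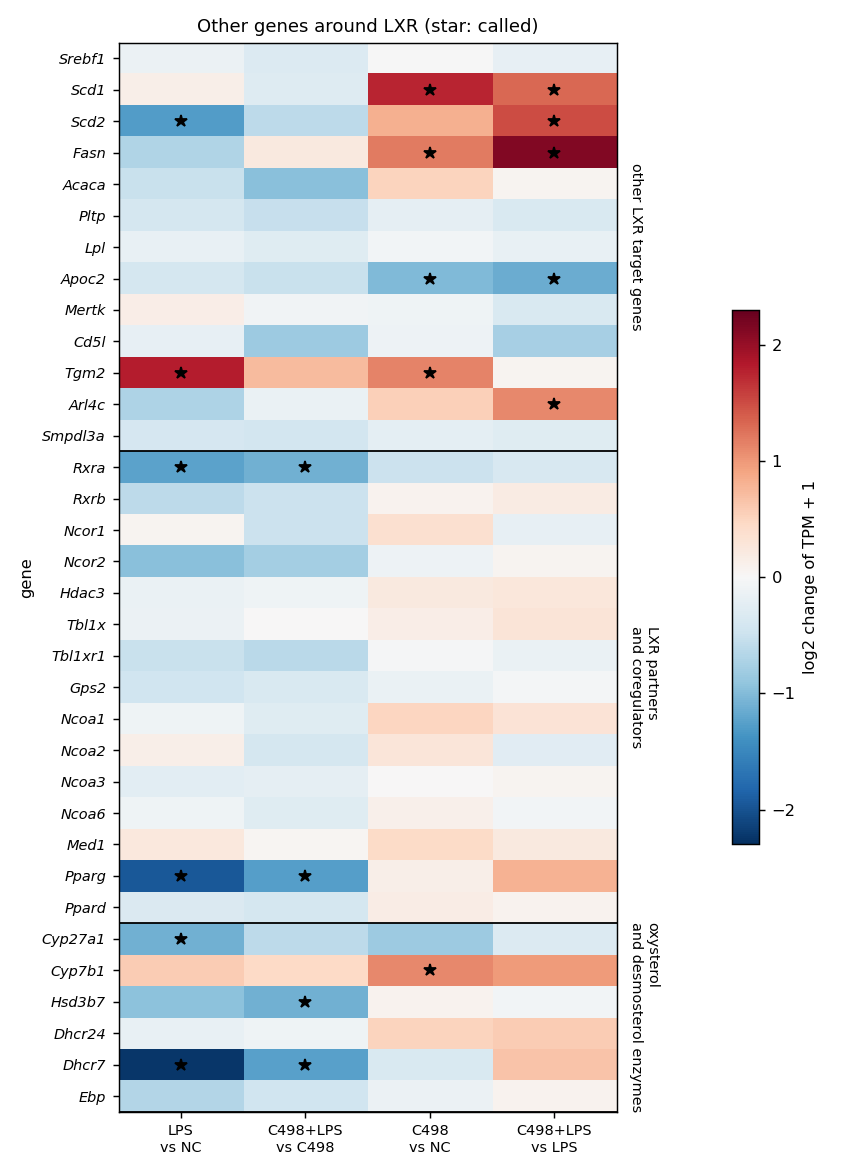
Log2 change of TPM + 1 (colour) of the tested genes of 3 lists around LXR (rows) in 4 comparisons (columns), with a star for each call. Rxra and Pparg carry stars in both LPS responses, and Fasn and Scd1 carry stars in both comparisons of C498 with its control.

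Among 21 genes of cholesterol uptake, transport and ester handling, 19 were tested, and 1 was called higher and 2 lower in LPS vs NC, where 12.2% of all tested genes were called. Nceh1 and Lipa, hydrolases that release cholesterol from its esters, were the 2 called lower (log2 change -1.87 and -1.03, adjusted p = 0.00529 and 0.00325). Under 2-fold, Lrp1, Npc1, Scarb1 and Plin2 also passed the adjusted p, at -0.90, -0.85, -0.75 and -0.69 (adjusted p from 0.000696 to 0.0131), as did 4 genes that were higher. Lipa was at 591.0 and 432.3 TPM in NC and at 251.1 and 242.1 TPM in LPS. Cav1, the caveolar coat protein, rose from 19.0 and 14.5 TPM to 162.9 and 154.6 TPM (3.18, adjusted p = 4.93e-05). In C498+LPS vs C498 Cav1 was called higher (1.87, adjusted p = 0.00127) and Nceh1 lower (-1.84, adjusted p = 0.0109), where 5.64% of all tested genes were called. Of all tested genes 7% were called in C498 vs NC and 7.57% in C498+LPS vs LPS. Vldlr, a lipoprotein receptor, was the only call of this list in C498 vs NC (1.04, adjusted p = 0.0307) and in C498+LPS vs LPS (1.44, adjusted p = 0.00892). Vldlr was at 0.620 and 0.370 TPM in NC and 1.97 and 2.14 TPM in C498. It was under 1 TPM in all 4 samples without C498 and so entered the test only through the C498 groups, where it is high. Of 13 other ABCA and ABCG transporters 6 were tested, and Abcg3 was called in LPS vs NC, at 3.16 and 3.0 TPM in NC and 0.370 and 0.130 TPM in LPS (-1.71, adjusted p = 0.00251). LPS, C498 and C498+LPS had means of 0.25, 1.42 and 0.62 TPM. Averaged over all samples outside NC, Abcg3 was under 1 TPM, so it entered the test only through NC, where it is high. Of 6 lysophospholipid acyltransferases 5 were tested, and Lpcat2 rose with LPS (1.06, adjusted p = 0.00247) and was lower in C498+LPS than in LPS (-1.27, adjusted p = 0.00227).

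With both treatments against NC, where 18.2% of all tested genes were called, the calls were 4 of 13 other targets, 2 of 15 partners, 4 of 6 enzymes, 6 of 19 uptake and ester genes, 1 of 6 transporters and none of 5 acyltransferases. Among the other targets Tgm2 (1.88), Scd1 (1.45) and Fasn (1.42) were higher and Apoc2 (-1.53) was lower, and Rxra (-1.60) and Pparg (-1.13) were lower among the partners. Of the enzymes, Cyp7b1 (1.56) was higher and Dhcr7 (-1.59), Cyp27a1 (-1.43) and Hsd3b7 (-1.01) were lower. Of the uptake and ester genes, Cav1 (2.62) and Vldlr (1.23) were higher and Nceh1 (-1.57), Soat2 (-1.23), the second esterifying enzyme, and Lipa (-1.07) were lower, as was Scarb1 (-1.02), a receptor that exchanges cholesterol with HDL, and Abcg3 (-1.34) was lower among the transporters. These log2 changes had adjusted p between 6.78e-05 and 0.00743 by limma. Vldlr and Abcg3 are counted although they entered the test only through groups where they are high. The filter favoured their calls, which are given as a description only.

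The genes whose levels ran most like those of each member over the 8 samples were read from Pearson's r of log2(TPM + 1), as a description with no test, since all points share the 4 groups. Soat1 ran closest to Galc (r = 0.999), Lipa (0.998) and Mgat5 (0.996), and Lpcat3 to Mboat7 (0.986), Vill (0.985) and Lztr1 (0.984). Nr1h3 ran with Aldh3b1 (0.996), Dok2 (0.996) and Ifngr2 (0.995), and Abcg1 with Pigs (0.994), G6pdx (0.992) and Med16 (0.991). Abca1 ran with Iqgap1 (0.988), Trip11 (0.988) and Tent5c (0.986), Apoe with Gm10033 (0.976), Bbs4 (0.971) and Tyrobp (0.971), and Mylip with Tmem184b (0.977), Slc11a2 (0.920) and B2m (0.906). Ch25h ran with Gm6264 (0.993), C130026I21Rik (0.993) and Traf2 (0.992), and Nr1h2 with Pced1a (0.935), Zfp653 (0.911) and Gm14325 (0.892).

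On GRCm38 (GENCODE M21), which holds all 9 identifiers, the receptors lie at chr7:44549616-44553951 (Nr1h2, ENSMUSG00000060601) and chr2:91184061-91202834 (Nr1h3, ENSMUSG00000002108), and the transporters at chr4:53030787-53159895 (Abca1, ENSMUSG00000015243) and chr17:31057675-31117988 (Abcg1, ENSMUSG00000024030). Ch25h (ENSMUSG00000050370) is a gene of 1 exon at chr19:34473778-34475164, and Soat1 (ENSMUSG00000026600) lies at chr1:156424525-156474331. Apoe (ENSMUSG00000002985) lies at chr7:19696109-19699188, Mylip (ENSMUSG00000038175) at chr13:45389742-45412022 and Lpcat3 (ENSMUSG00000004270) at chr6:124663027-124704418. All 9 are protein-coding, and the build the authors used is not given in the sources used here. Transcripts of Gm13783 and Gm26902 overlap exons of Nr1h3 and Ch25h but had means of 0.0813 and 0.155 TPM.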

How the data were processed

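Sequencing reads were filtered with fastp, aligned with HISAT2, assembled with StringTie and quantified with RSEM by the authors, who deposited the resulting TPM table, rounded to 2 decimals. The genome build, annotation, tool versions and strand setting are not given in the sources used here. TPM keeps no read counts, so the authors' DESeq2 test was not repeated, and depth is unknown. Between 17528 and 18975 genes were above 0 in a sample, and Pearson's r between replicates over the tested genes was 0.962 to 0.981. Column names NC were matched to the samples titled as controls. The authors' group means were not used.

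Values were taken as log2(TPM + 1), and limma 3.58.1 (R 4.3.3) was run on genes averaging 1 TPM or more, with 1 mean per group over all 8 samples, moderated variances with a trend, and Benjamini-Hochberg adjustment within each comparison. The steps were tested on simulated data. Named genes are the 9 members, list genes called in a comparison (at most 5 per list and comparison by size of change), and the 3 genes most alike to each member. Srebf1, Acaca, Cd5l, Scarb1, Lrp1, Npc1 and Plin2 were added after their values were seen. Members and lists were chosen with earlier results of these data known. Symbols and promoters were matched with pandas 2.3.3, and figures drawn with matplotlib 3.10.9. Protein sequences were not used here. Gene coordinates came from GENCODE M21 (GRCm38) by Ensembl identifier, 9 of 9 matched, and promoter sequences from RefSeq (GRCm38.p6). Alternatives are named in the closing section.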

Additional observations from a re-analysis of the deposited data

Results flagged for a closer look

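Mylip was the one gene of the 9 whose samples lay in opposite directions in the LPS response without and with C498: NC lay wholly below LPS, whereas C498 lay wholly above C498+LPS. The difference between these responses was -1.09 on the log2 scale by limma's interaction term. It did not pass the adjustment over all tested genes (adjusted p = 0.213, range 0.0674 to 0.641 over the alternatives), and its levels did not exceed 8.00 TPM. A lack of overlap was common, since 7489 of the 12189 tested genes showed it for the first response and 8066 for the second. How many tested genes had opposite directions was not counted, so the pattern of Mylip has no background share. Groups of 2 samples were too small to look for single outlying samples.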

How the results depend on the processing

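TPM values carry no read counts, so the precision that depth gives is unknown, and 2 samples a group leave 4 residual degrees of freedom. Of 909 values of the 9 genes under alternatives, 866 kept their direction and their call or lack of one, 14 lost a call, 4 gained one and 25 changed sign. The adjusted p alone changed sides of 0.05 for 48, of which 26 lost it, 22 gained it and 36 belong to the 866. The causes were not tested. Tried were a pseudocount of 0.1, filters at none and at 5 TPM, centring, quantile normalization, fits restricted to the compared groups, a flat variance prior, no fold threshold, a replicate block, each sample left out (the lone sample is then assumed to vary like the other groups) and, chosen after seeing the data, removal of each sample's length trend.

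The number of the 9 genes called in C498 vs NC was 1 with no fold threshold (0 to 1 with a sample left out, 1 without NC replicate 1), in C498+LPS vs LPS it was 0 to 2 with a sample left out, and the interaction was called for 1 with the length trend removed. The replicate block gave the same numbers of calls, 3, 0, 2, 3, 4 and 0. Deviations of same-numbered samples correlated at 0.0397 to 0.168, 3 of 6 pairs under 0.1, so the numbers were not taken to pair samples.

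Signs changed under centring for Nr1h2 in C498 vs NC (-0.035) and C498+LPS vs C498 (0.15, and 0.13 with the length trend removed) and for the Apoe interaction (0.018), under quantile normalization for Soat1 in C498+LPS vs LPS (0.0200), and with the length trend removed for Lpcat3 in LPS vs NC (0.0170). With a sample left out, Abca1 ran from -0.36 to 1.11 in LPS vs NC, from -0.31 to 0.17 in C498+LPS vs LPS and from -0.43 to 1.04 in C498+LPS vs NC. In C498 vs NC Apoe ran from -0.41 to 0.0052, Ch25h from -0.016 to 0.47 and Soat1 from -0.42 to 0.13. Soat1 ran from -0.19 to 0.00057 in C498+LPS vs LPS, Nr1h2 from -0.17 to 0.044 in C498+LPS vs C498 and from -0.084 to 0.13 in C498+LPS vs NC, and Mylip from -0.35 to 0.011 in C498+LPS vs NC. The interaction ran from -0.23 to 0.18 for Apoe, from -0.16 to 0.013 for Lpcat3 and from -0.22 to 0.33 for Soat1.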
